A study of Mus musculus with 18 samples.

Results

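The transcripts described here are those of the coagulation and fibrinolysis genes, 35 named genes of the 31053 genes listed in the deposited tables. They were chosen by name, with no threshold on a measured value but with earlier results of these data known. They comprise 7 zymogens and cofactors that generate thrombin, 4 genes of the contact system, 6 genes of fibrin formation or related to fibrinogen (Fgl1), 7 anticoagulants, 5 genes of fibrinolysis, 5 plasma binding proteins or broad protease inhibitors, and von Willebrand factor. RNA was sequenced from hepatocytes that were freshly isolated by collagenase perfusion of mouse livers. Wild-type C57BL/6J mice were young (3 months) or old (24 months) and were sampled at 0 h (Young and Old) or 48 h after partial hepatectomy (PH), the surgical removal of most of the liver (Young PH and Old PH), with 3 mice per group. The young mice came from the Jackson Laboratory and the old mice from aged colonies of the National Institute on Aging, so age and source cannot be told apart. Male mice labelled 3 months old, homozygous for a loxP-flanked Smo allele (Smo tm2Amc/J) on the C57BL/6J background, carried an adeno-associated virus of serotype 8 that used the hepatocyte-directed TBG promoter to express luciferase (Smo (+), 1 library per time) or Cre (Smo (-), 2 libraries per time). They too were sampled at 0 h or 48 h after PH, the surgery following the virus by a week, and all mice of that experiment shared the floxed allele and an injection of virus. Smo encodes Smoothened, the transducer of Hedgehog signals, and the study asked how Hedgehog signalling in hepatocytes bears on the loss of regeneration with age.

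Hepatocytes make most proteins of blood clotting and release them into plasma as inactive precursors. Vessel injury sets off a cascade of serine proteases that ends in thrombin, which cuts fibrinogen to fibrin, while antithrombin, the protein C system and other inhibitors hold the cascade back and plasmin dissolves the clot. Several of the proteases need vitamin K to be made in active form. Fibrinogen is also an acute phase protein, made in larger amounts when interleukin 6 reaches the liver, and a few clotting genes, among them those for factor VIII, thrombomodulin and von Willebrand factor, belong mainly to endothelial cells.

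Each library held between 16835686 and 36646939 read pairs in genes, fewest in the Smo-floxed mice and most in Young. Young wild-type libraries held 31729517 to 36646939 and old ones 17089525 to 23073217. Pairs in more than 1 gene made up 2.89% to 3.77% of pairs in the young libraries and 6.14% to 7.69% in the old ones. Pairs outside annotated genes made up 25.2% to 33.9% of pairs in the 6 libraries from young wild-type mice but 2.03% to 3.74% in the 6 from old mice, and the nuclear RNA Malat1 reached 3487 to 6004 CPM (counts-per-million) in the former and 18.2 to 165 in the latter. All of these separations follow age in every wild-type library, and their part in the age differences given here was not tested. The Smo (+) library at 0 h also stood apart, with 22.5% of its counts from the mitochondrial genome against 3.32% to 6.85% in the other 5 libraries of its experiment, and with Malat1 at 3546 CPM against 123 to 682. Smo itself had 78 counts in Smo (+) and 25 and 54 in Smo (-) at 0 h, and 220 in Smo (+) against 30 and 26 in Smo (-) 48 h after PH, so the counts over the whole gene followed the labels. Hepatocyte markers were abundant throughout, together 100879 to 122179 CPM in Young and 137833 to 190666 in Old, with none at 0. Though the sum was higher in Old, 2 of the 9 markers tested were called higher there and 4 lower, with a median log2 difference of -0.11. After PH the summed levels were 61189 to 70919 CPM in Young PH and 67469.8 to 93733 in Old PH. Of the 9 markers 5 were called lower at each age, with median log2 changes of -0.82 and -0.71, as were most of the members called after PH. The part of this shift in the members' values was not tested.

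The members took 3.52% to 5.99% of all gene counts. Levels below are CPM after scaling by trimmed means of M values, each of the 2 tables scaled on its own, and levels of different genes are compared only as CPM per kilobase of exon. On that scale Fga, which encodes the fibrinogen alpha chain, ranked first in Young, Old, Young PH and Old PH and in both Smo groups after PH, with means of 1731, 2626, 3086 and 2578 CPM per kilobase in the 4 wild-type groups. Vtn, the gene of the adhesive plasma protein vitronectin, stood at 1144 in Young and 2509 in Old, and Fgg, the fibrinogen gamma chain, at 918 and 2477. The order differed in the quiescent Smo-floxed mice, where Apoh led in Smo (+) with 2965 and Vtn led in Smo (-) with 1876 CPM per kilobase. In every group 8 members stayed under 5 CPM per kilobase. These were F8, F13a1, Tfpi, Thbd, Plau, Plat, A2m and Vwf, of which F8, Tfpi, Thbd and Vwf belong to endothelial cells.

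**Figure D1:**
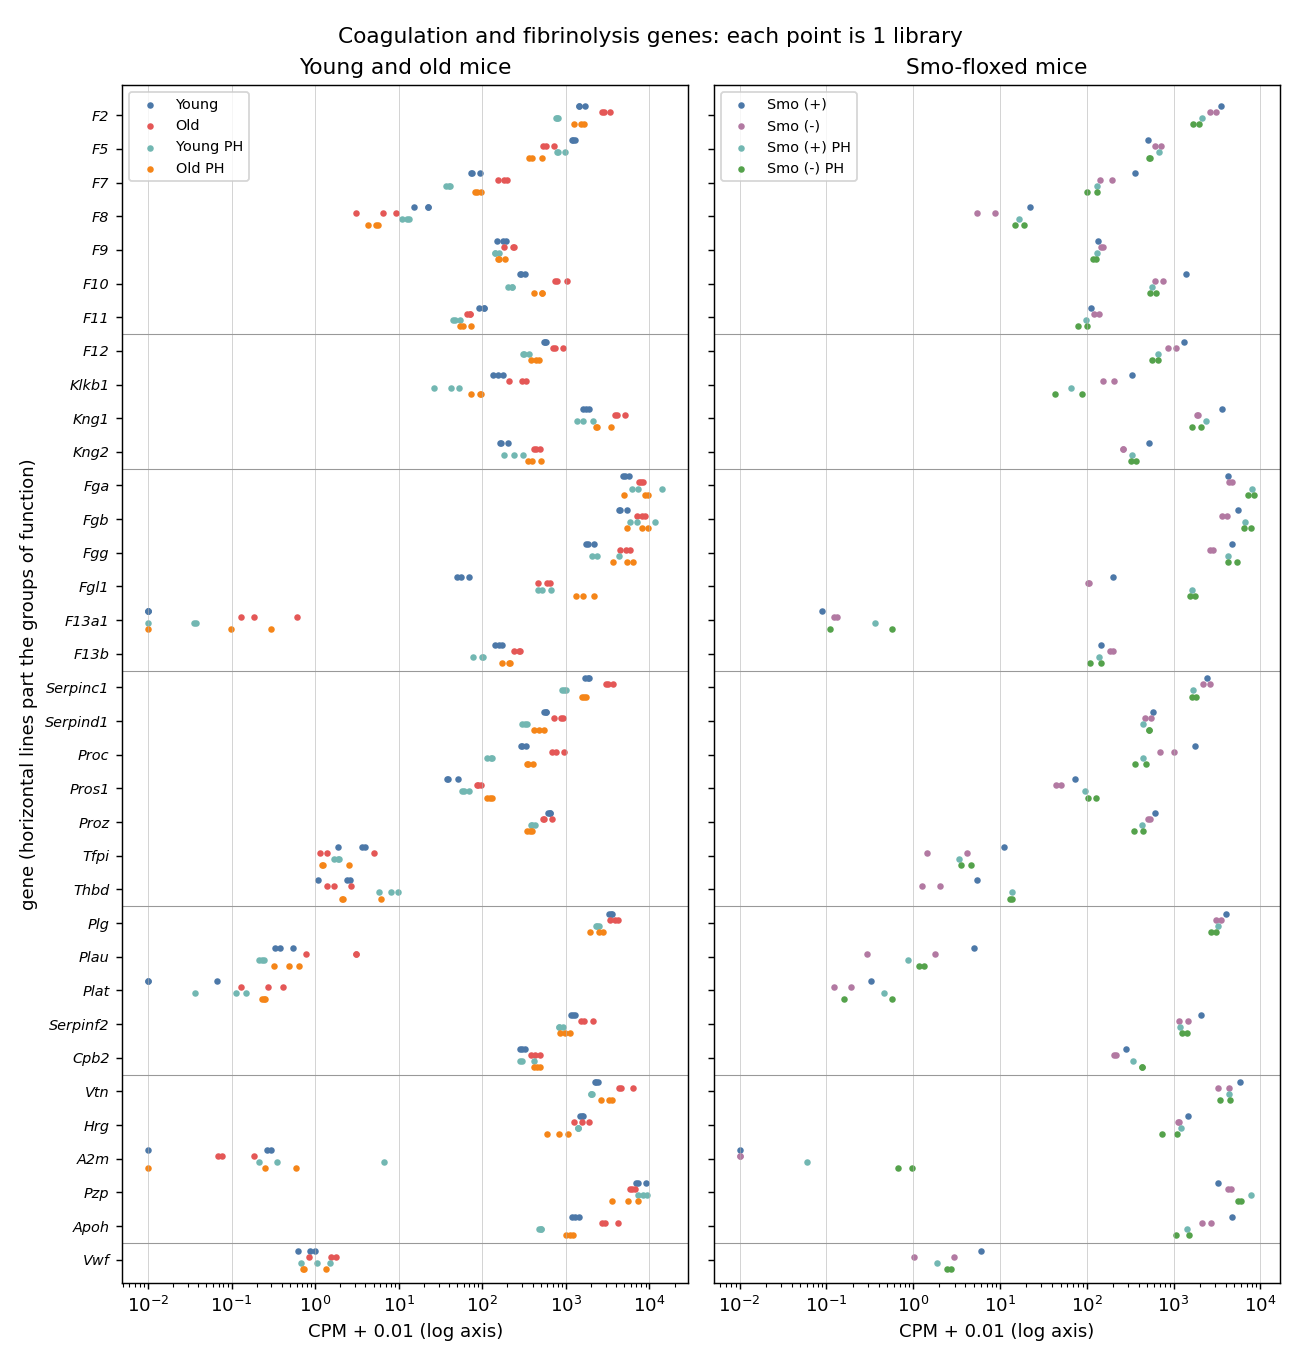
Level of each gene in each library for the young and old mice and the Smo-floxed mice, with 1 point per library coloured by group. The log axis shows CPM with a small constant added, not divided by exon length. In every group the 3 fibrinogen chains, Vtn and Plg sit at the high end and Vwf, Tfpi, Plau, Plat, F13a1 and A2m at the low end. Pzp has its lowest group mean in Smo (+) at 0 h, 506 CPM per kilobase, a scale that is not drawn.

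Differences were tested with the edgeR quasi-likelihood test across all genes that passed a filter on low counts, with Benjamini-Hochberg adjustment, and a gene was called at an adjusted p under 0.05. A log2 value with ± is a fitted log2 fold change and its standard error (SE). Between Old and Young at 0 h, 20 of the 33 members tested were higher in Old and 3 were lower, beside 29.3% and 33.7% of all 14554 genes tested that were called higher and lower. The median member differed by 0.75 on the log2 scale (Old minus Young) and the median over all genes by -0.05. After PH in young mice 5 members were higher and 15 lower, against 17.8% and 16.4% of all genes, with a median log2 change of -0.51 for members and -0.01 for all genes. In old mice 2 members were higher and 19 lower after PH, against 22.5% and 15.1% of all genes, with medians of -0.59 and 0.08. At 48 h, 18 members were higher in Old PH than in Young PH and 6 were lower, against 29.7% and 32.4% of all genes, with medians of 0.44 and -0.07. These comparisons share libraries: Old against Young uses the same controls as the 2 PH comparisons, whereas Young PH against Young and Old PH against Old share none. F13a1 and Plat did not pass the filter in the wild-type mice. With correction for gene length, which moved the median of all genes from -0.05 to 0.08 for Old against Young, Cpb2, F12, Fgb, Serpind1 and Serpinf2 lost their call with age at 0 h. At 48 h the same correction left 14 members called, without A2m, Cpb2, F8, F11, F12, Fgg, Kng1, Pzp, Serpind1 and Vtn. In hepatocyte preparations fewer cells of a type and less RNA per cell cannot be told apart.

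**Figure D2:**
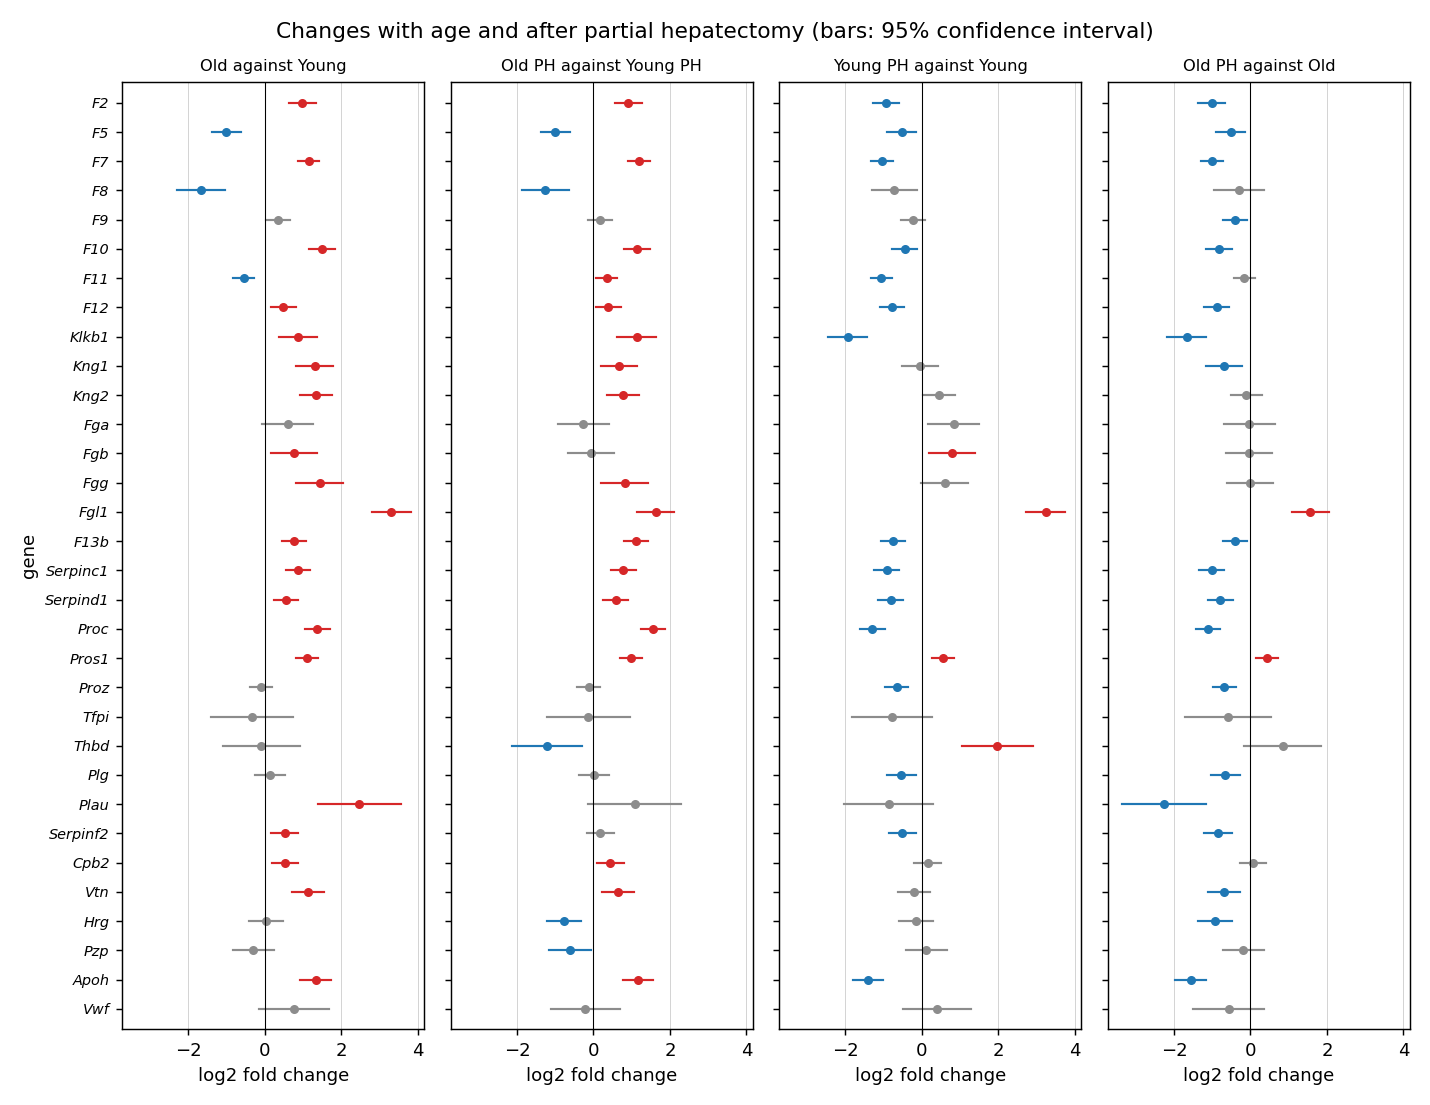
Log2 fold change of each member in the 4 comparisons of wild-type mice, with bars for the 95% confidence interval and colour for genes called higher (red) or lower (blue); grey genes were not called. A2m, F13a1 and Plat are not drawn. The column of Old against Young is mainly red, with F5, F8 and F11 in blue, and both columns of PH against 0 h are mainly blue, with Fgl1 far to the right.

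Of the 7 thrombin-generating genes 3 were higher and 3 lower in Old, and 5 were lower after PH at each age. F2, F7 and F10 were higher in old hepatocytes and fell after PH at both ages, whereas F5 was lower in old hepatocytes and also fell. F2 encodes prothrombin, the precursor of thrombin. Its level was 1431, 1677 and 1420.0 CPM in the 3 Young libraries, 3338, 2871 and 2709 in Old, 799, 772 and 790.1 in Young PH and 1661, 1506 and 1259.7 in Old PH. All Old libraries lay above all Young libraries at each time, and all PH libraries lay below those of their age at 0 h. Such separation is common here, since 66.2% of all tested genes did not overlap between Old and Young, 69.2% between Old PH and Young PH, 55.0% between Young PH and Young and 42.6% between Old PH and Old. The log2 difference of F2 was 0.98 ± 0.16 (SE, adjusted p = 1.52e-04) between Old and Young, -0.94 ± 0.16 (SE, adjusted p = 5.66e-04) after PH in young mice and -1.01 ± 0.16 (SE, adjusted p = 3.68e-04) in old mice. F10 encodes factor X, the protease that converts prothrombin. It stood at 286, 329 and 289.9 CPM in Young and 1029, 789 and 736 in Old, a 2.83-fold difference, and at 229.9, 227 and 203 in Young PH and 523, 417 and 513 in Old PH. With age F10 differed by 1.5 ± 0.16 (SE, adjusted p = 2.85e-06), and after PH it fell in young mice (-0.45, adjusted p = 0.0378) and in old mice (-0.81, adjusted p = 0.00133), with a difference between the responses that was not called (-0.36, adjusted p = 0.383). The young change of F10 was lost when any 1 of the 6 libraries was left out (adjusted p 0.0656 to 0.133).

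F7 encodes factor VII, which starts the cascade together with tissue factor. It measured 73.7, 93.5 and 75.7 CPM in Young, 199.7, 183 and 153 in Old, 40.7, 39.7 and 36.7 in Young PH and 97.6, 87.2 and 82.8 in Old PH. The groups did not overlap in any of the 4 comparisons, in which 42.6% to 69.2% of all tested genes did not overlap either. Its log2 differences were 1.14 ± 0.13 (SE, adjusted p = 6.61e-06) for age at 0 h, -1.05 ± 0.13 (SE, adjusted p = 4.33e-05) for PH in young mice and -1.0 ± 0.13 (SE, adjusted p = 7.76e-05) for PH in old mice. F7, F10 and Proz are neighbours on chromosome 8 (GRCm38), all on the plus strand, at 13026034-13035809, 13037308-13056676 and 13060914-13076026. Proz, the gene of protein Z, a cofactor for the inhibition of factor X, was not called with age (-0.11 ± 0.14, adjusted p = 0.503), with 620.2, 645 and 651 CPM in Young and 693, 546 and 539 in Old. It fell after PH at both ages, with log2 changes of -0.66 (adjusted p = 0.00195) and -0.68 (adjusted p = 0.00175).

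F5 encodes factor V, the cofactor that factor X needs to make thrombin. Its levels were 1210.1, 1294 and 1171 CPM in Young and 729, 573 and 528 in Old, and 789.9, 798 and 968 in Young PH and 517, 398 and 365 in Old PH. Every old library lay below every young library of the same time, with a log2 difference of -1.01 ± 0.18 (SE, adjusted p = 2.23e-04) at 0 h, and of -1.0 ± 0.18 (SE, adjusted p = 2.46e-04) later, 48 h after PH. After PH F5 changed by -0.52 ± 0.17 in young and -0.52 ± 0.17 in old mice (adjusted p = 0.0329 and 0.0327), calls that did not hold in 5 and in 3 of the fits that left out 1 library. F8 encodes factor VIII, the cofactor of factor IX. It was low, with 15.2, 22.5 and 22.2 CPM in Young, 3.05, 9.32 and 6.48 in Old, 10.8, 13.2 and 12.4 in Young PH and 4.27, 5.59 and 5.38 in Old PH. The old libraries were the lower ones at both times (-1.67 ± 0.29 and -1.26 ± 0.29, adjusted p = 2.12e-04 and 0.00189). Liver factor VIII comes from sinusoidal endothelial cells. Of 13 endothelial markers 3 were called lower in Old than in Young, 23.1% beside 33.7% of all tested genes. Their summed level was 270.0 to 424 CPM in Young and 128 to 344 in Old, with no marker at 0. At 48 h 7 of the 13 were lower in Old PH, beside 32.4% of all tested genes, with sums of 186 to 208 and 66.0 to 96.4 CPM. The part of the marker level in the difference of F8 was not tested. F9, the gene of factor IX, was not called with age, with 152, 178 and 190.3 CPM in Young and 236, 242 and 179.9 in Old (0.34 ± 0.14, adjusted p = 0.0534). It fell after PH in old mice (-0.40 on the log2 scale, adjusted p = 0.0436), and this call did not hold in 4 of 6 fits without 1 library.

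F11 was the member whose age difference turned with time. It encodes factor XI, the protease that thrombin activates to sustain clotting. Levels were 106, 106 and 91.7 CPM in Young, 71.2, 71.1 and 65.1 in Old, 53.6, 44.5 and 47.8 in Young PH and 72.4, 54.7 and 58.3 in Old PH. Young libraries were thus the highest at 0 h and the lowest at 48 h, with no overlap between ages at either time. Over all tested genes 66.2% did not overlap between ages at 0 h and 69.2% at 48 h. The log2 difference between ages was -0.55 ± 0.13 (SE, adjusted p = 0.00175) for the quiescent livers and 0.35 ± 0.13 (SE, adjusted p = 0.0284) for those after PH. F11 fell after PH in young mice (-1.06 ± 0.13, adjusted p = 2.63e-05), while old mice gave -0.16 ± 0.13 (adjusted p = 0.334). The difference between these responses, 0.90 ± 0.18 (SE, adjusted p = 0.0225), was called, 1 of 2 members called for a difference in PH response, where 2.27% of all genes were called higher and 0.983% lower. It was lost without Young 1, Young PH 2 or Young PH 3 (adjusted p 0.0542 to 0.0741), and the age difference at 48 h without Young PH 2, Young PH 3 or Old PH 1 (adjusted p 0.0650 to 0.154). With correction for gene length the 48 h difference of F11 was -0.01 (adjusted p = 0.959).

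The contact system was higher with age in all of its 4 genes at both times, and 2 of the 4 fell after PH in young mice and 3 in old mice. At 48 h the age calls of F12 and Kng1 were weaker, lost in 4 (adjusted p 0.0814 to 0.122) and 2 (0.0676 to 0.0895) of 6 fits without 1 library and both with correction for gene length. It starts clotting on foreign surfaces and releases the vasoactive peptide bradykinin. Klkb1, the gene of plasma prekallikrein, lies beside F11 on the minus strand of chromosome 8 (Klkb1 at 45266689-45294859 and F11 at 45241174-45262031, GRCm38). It measured 134, 175 and 154 CPM in Young, 333, 295 and 209.6 in Old, 26.3, 42.2 and 52.6 in Young PH and 96.1, 73.8 and 94.8 in Old PH. Old libraries lay above young ones and PH libraries below those at 0 h, where 42.6% to 69.2% of all tested genes did not overlap. Klkb1 fell after PH by more than any other tested zymogen or contact gene, 3.83-fold in young mice (-1.94 ± 0.24, adjusted p = 3.24e-05 on the log2 scale) and 3.17-fold in old mice (-1.66 ± 0.24, adjusted p = 1.30e-04). Its age difference was 0.85 ± 0.23 (SE, adjusted p = 0.00530) at 0 h. The ratio of F11 to Klkb1 (CPM per kilobase) was 1.85, 1.42 and 1.39 in Young and 0.501, 0.564 and 0.727 in Old, and 4.78, 2.47 and 2.13 in Young PH and 1.76, 1.74 and 1.44 in Old PH. The ratio was lower in old mice at each time and higher after PH at each age, without overlap. Of the 50-base words in the exons of Klkb1, 42.7% also lie in Gm45753, a gene model on the same strand, so reads there could have been left uncounted.

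The stretches before the starts of these neighbours are shown because they share a strand and a locus and differed in their response to age. They are RefSeq windows of GRCm38.p6, 5′ to 3′ on the minus strand, at chr8:45262032-45262281 for F11 and chr8:45294860-45295085 for Klkb1, with capitals for matches to the C/EBP site TTGCNNAA or the TATA box TATAAA on either strand. Each stretch ends at the GENCODE gene start, which leaves out the last 24 bases before the RefSeq start for Klkb1 and none for F11.
F11: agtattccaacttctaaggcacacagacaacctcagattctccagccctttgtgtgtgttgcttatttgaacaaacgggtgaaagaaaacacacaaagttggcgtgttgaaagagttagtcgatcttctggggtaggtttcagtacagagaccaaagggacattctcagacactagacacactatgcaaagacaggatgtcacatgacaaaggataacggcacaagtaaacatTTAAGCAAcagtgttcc
Klkb1: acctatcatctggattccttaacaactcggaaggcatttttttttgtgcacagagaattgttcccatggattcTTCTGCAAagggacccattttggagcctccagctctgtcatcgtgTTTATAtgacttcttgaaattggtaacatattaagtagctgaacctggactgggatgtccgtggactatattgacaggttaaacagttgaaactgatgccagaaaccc
The F11 match lies 17 to 10 bases before the start, and the Klkb1 matches lie 153 to 146 bases (C/EBP) and 108 to 103 bases (TATA) before the end of the stretch shown. A match is a description of letters and not of a bound site.

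F12, the gene of factor XII, which starts the contact system, stood at 549.7, 568 and 586 CPM in Young, 932, 707 and 747 in Old, 364, 320.0 and 307 in Young PH and 478, 442 and 378 in Old PH. Its age difference was 0.49 ± 0.15 (SE, adjusted p = 0.0113) at 0 h, and it fell after PH, with log2 changes of -0.78 in young and -0.88 in old mice (adjusted p = 0.00115 and 5.57e-04). Kng1 and Kng2 encode kininogens, the carriers of bradykinin. Kng1 was at 1624, 1868 and 1750.2 CPM in Young and 5048, 3825 and 4044 in Old, and Kng2 at 162, 201 and 169.5 in Young and 492, 439 and 417 in Old. Neither pair of groups overlapped, as for 66.2% of all tested genes. The log2 differences were 1.30 ± 0.22 (SE, adjusted p = 1.79e-04) for Kng1 and 1.34 ± 0.20 (SE, adjusted p = 4.84e-05) for Kng2. After PH Kng1 was at 2086, 1604 and 1348 CPM in Young PH and 3448, 2333 and 2276 in Old PH, a fall called in old mice (-0.68 ± 0.22, adjusted p = 0.0258) and not in young (-0.06 ± 0.22, adjusted p = 0.871), with no call for the difference (-0.62 ± 0.31, adjusted p = 0.271). The fall in old mice lost its call without Old PH 2 or Old PH 3 (adjusted p 0.0929 to 0.103). Kng2 after PH was at 309, 238 and 181 CPM in Young PH and 505, 397 and 352 in Old PH and was called at neither age. The pair shares sequence, 17.2% of the 50-base words of Kng1 with Kng2 and 19.4% of those of Kng2 with Kng1, so their counts are not fully separate.

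Fibrinogen is built from 3 chains encoded side by side on chromosome 3 (GRCm38): Fgg at 83007724-83015049 and Fga at 83026076-83033627 on the plus strand, and Fgb at 83040141-83049863 on the minus strand. The bases before each start are shown because the chains form 1 protein yet differed in how far they moved. They are RefSeq windows of GRCm38.p6, each 5′ to 3′ on the strand of its gene, at chr3:83025903-83026075 (plus) for Fga, chr3:83049864-83050113 (minus) for Fgb and chr3:83007474-83007723 (plus) for Fgg. Capitals mark matches on either strand to the interleukin 6 element CTGGGAA or the C/EBP site TTGCNNAA. The stretches end at the GENCODE gene starts, so that for Fga 173 bases are shown and the last 77 before its RefSeq start are left out, while Fgb and Fgg are shown whole.
Fga: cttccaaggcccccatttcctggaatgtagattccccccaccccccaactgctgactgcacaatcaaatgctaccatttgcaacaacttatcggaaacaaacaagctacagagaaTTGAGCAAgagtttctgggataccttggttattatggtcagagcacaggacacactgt
Fgb: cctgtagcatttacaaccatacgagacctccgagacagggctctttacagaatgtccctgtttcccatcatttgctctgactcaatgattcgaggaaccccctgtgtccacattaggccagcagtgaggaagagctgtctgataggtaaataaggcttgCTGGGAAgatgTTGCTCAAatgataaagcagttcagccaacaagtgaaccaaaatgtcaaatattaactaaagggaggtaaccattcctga
Fgg: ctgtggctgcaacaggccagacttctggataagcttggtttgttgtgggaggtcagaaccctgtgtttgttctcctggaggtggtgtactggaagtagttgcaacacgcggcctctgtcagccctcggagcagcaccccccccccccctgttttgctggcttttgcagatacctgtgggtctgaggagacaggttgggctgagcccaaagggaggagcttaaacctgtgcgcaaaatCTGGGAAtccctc
Fgb held 1 match to each of these, at 91 to 85 and 80 to 73 bases before the end of the stretch shown, Fgg held an interleukin 6 element at 13 to 7 bases, and Fga a C/EBP site at 58 to 51 bases. The whole windows of 250 bases before the RefSeq start were searched, and were found for 26 of the 35 members, 28 windows in all. The C/EBP site occurred in 25.0% of them and in 9.56% of 32851 windows of all genes, the interleukin 6 element in 14.3% and 9.10%, and the TATA box in 10.7% and 12.4%, while the HNF4 letters CAAAGTCCA occurred in 0 member windows and in 0.384% of all. The only matches that overlapped were 2 TATA boxes in Vtn.

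With age Fgg and Fgb rose and Fga did not pass the test. Fgg was at 1821, 2203 and 1739 CPM in Young and 5192, 5912 and 4447 in Old, a 2.70-fold difference (1.43 ± 0.29, adjusted p = 6.71e-04 on the log2 scale). Fgb was at 4423, 5433 and 4381 CPM in Young and 8083, 8801 and 7116 in Old (0.75 ± 0.28, adjusted p = 0.0304), a call lost without Young 1 or Young 3. Fga was at 5166, 5665 and 4799.7 CPM in Young and 7937, 8355 and 7418 in Old, with a difference of 0.60 ± 0.31 (adjusted p = 0.106), and no Young library reached an Old one, as for 66.2% of all tested genes. Set against the alpha chain per kilobase of exon, the gamma chain was at 0.507, 0.559 and 0.521 in Young, 0.941, 1.02 and 0.862 in Old, 0.433, 0.462 and 0.472 in Young PH and 0.958, 0.890 and 1.05 in Old PH. The old libraries lay above the young ones at both times, 1.78-fold at 0 h and 2.12-fold at 48 h by geometric means (exact permutation test, two-sided p = 0.1 for each, the smallest that 3 against 3 allows, and 0.2 adjusted over 24 ratio tests). For the beta chain against the alpha chain the ratios were 0.676, 0.758 and 0.721 in Young and 0.805, 0.832 and 0.758 in Old, and the groups met at 0.758.

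**Figure D3:**
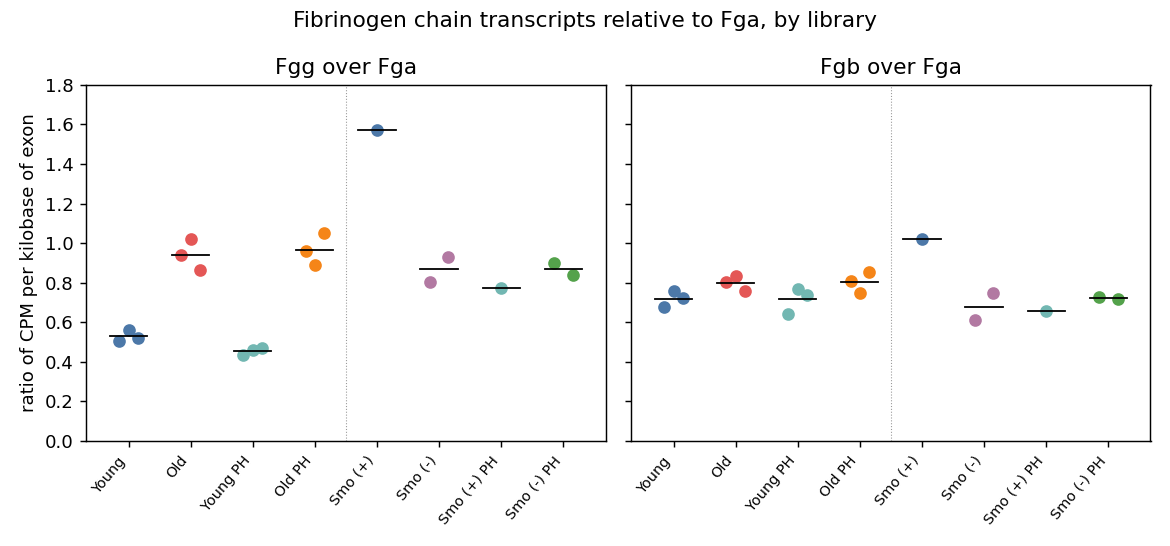
Ratio of Fgg to Fga (left) and of Fgb to Fga (right) in each library, as ratios of CPM per kilobase, with a bar at the group mean and a dotted line between the 2 tables. Fgg over Fga is between 0.433 and 0.559 in the young libraries, between 0.862 and 1.05 in the old ones and 1.57 in the Smo (+) library at 0 h, while Fgb over Fga lies between 0.640 and 0.854 in all wild-type libraries.

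After PH the fibrinogen chains were spread widely between mice. Fga was at 14311, 7287 and 6272 CPM in Young PH and 9520.1, 8749 and 5015 in Old PH, and Fgb at 11592, 7106 and 5874 in Young PH and 9746, 8257 and 5419 in Old PH. Fgg was at 4313, 2341 and 2059.7 CPM in Young PH and 6344, 5415 and 3662 in Old PH. Young PH 1 had the highest value of its group for all 3 chains and Old PH 3 the lowest of its own. Only Fgb was called after PH in young mice (0.79 ± 0.28, adjusted p = 0.0436), and 5 of the 6 fits without 1 library lost that call. The change of Fga was 0.83 ± 0.31 (adjusted p = 0.0526), and 0.38 without Young PH 1. No chain was called in old mice after PH, with log2 changes of -0.03 ± 0.31 for Fga, -0.04 ± 0.28 for Fgb and -0.01 ± 0.28 for Fgg. Between the ages at 48 h Fgg alone was called (0.82 ± 0.28, adjusted p = 0.0219), which was 1.22 (adjusted p = 0.0015) without Young PH 1 and missed the threshold in 4 other fits without 1 library. In the library Old PH 3 the mitochondrial genome gave 11.2% of counts.

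Fgl1 had the largest difference of any member between Old and Young. It encodes fibrinogen-like 1, a liver protein related to fibrinogen that does not form clots and is known as a hepatocyte growth-promoting factor and as a ligand of an immune checkpoint receptor. Its level was 49.5, 70.0 and 55.3 CPM in Young, 653, 598 and 469 in Old, 667, 515 and 469.8 in Young PH and 2174, 1604 and 1315 in Old PH. Old hepatocytes at 0 h and young hepatocytes after PH thus covered nearly the same range, and Old PH lay above all other wild-type groups. The Smo-floxed mice after PH, scaled in their own table, had means near that of Old PH. These were 367 in Smo (+) PH and 373 in Smo (-) PH against 383 CPM per kilobase in Old PH. With age the difference was 9.85-fold (3.30 ± 0.24, adjusted p = 9.85e-08 on the log2 scale). After PH Fgl1 rose 9.45-fold in young mice (3.24 ± 0.24, adjusted p = 2.47e-07) and 2.96-fold in old mice (1.57 ± 0.22, adjusted p = 1.27e-04). The response was smaller in old mice (-1.67 ± 0.31, adjusted p = 0.0185), a call lost without Young 1 or Young PH 2 (adjusted p 0.0516 to 0.0551).

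**Figure D4:**
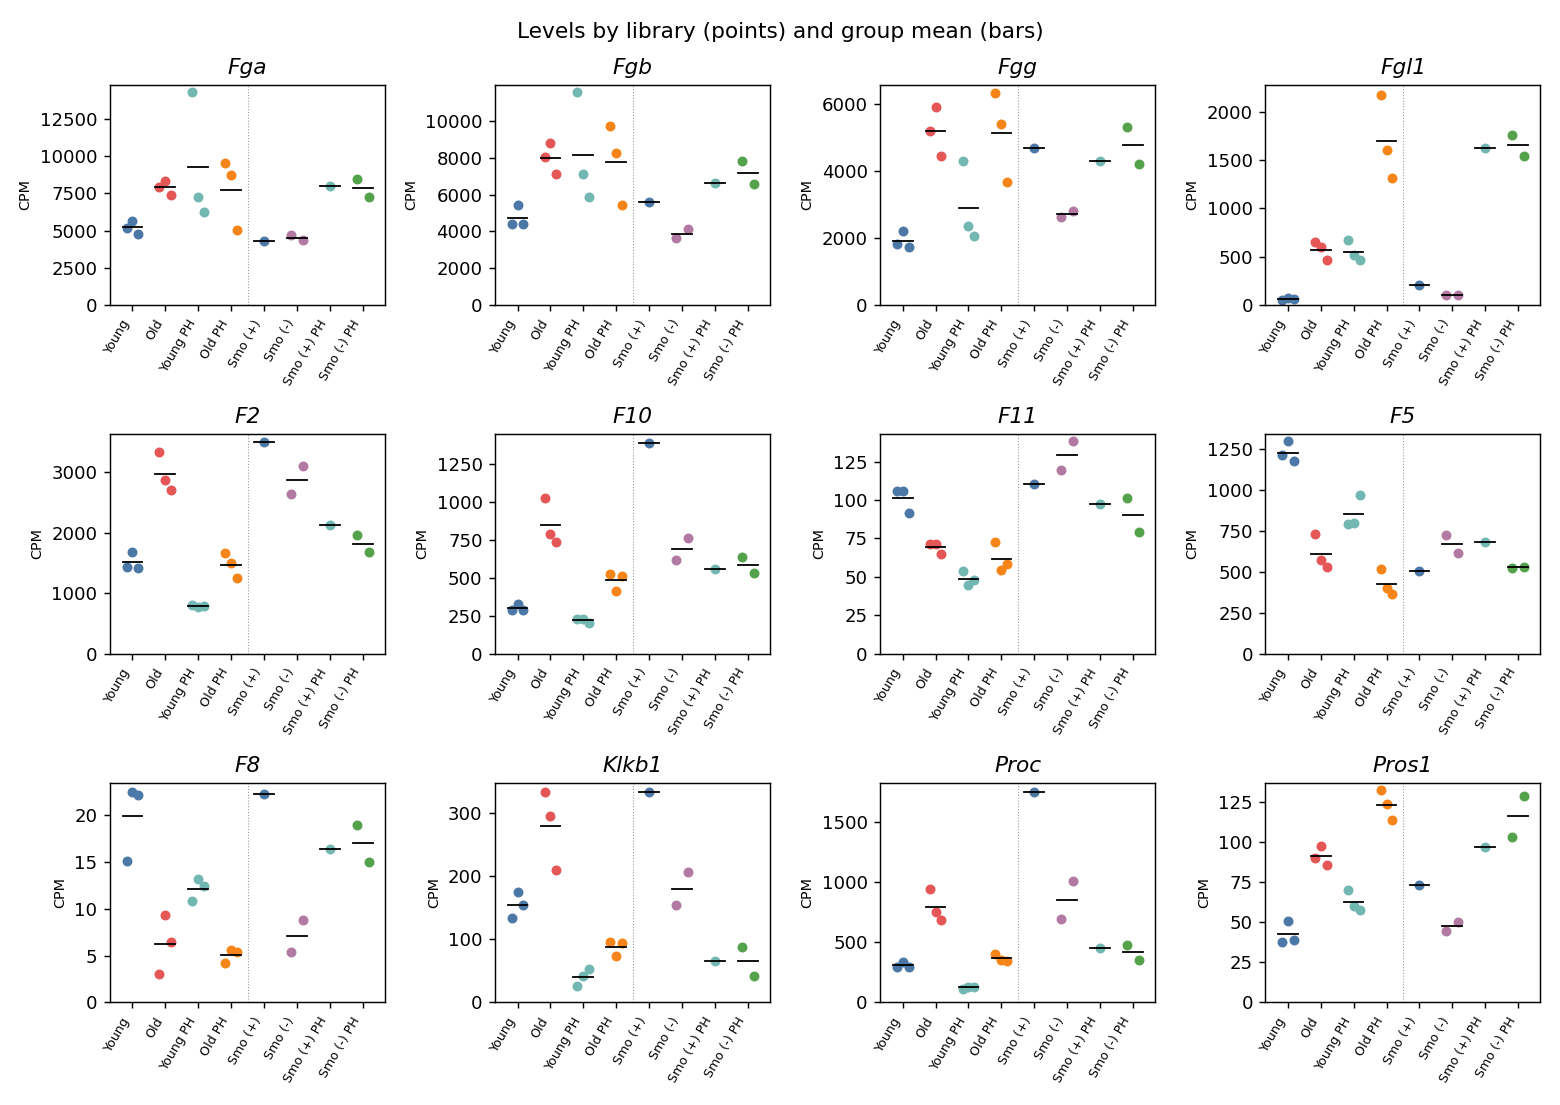
Levels in CPM of 12 members in each library (points) with the group mean (bars), the vertical axis of each panel starting at 0 and a dotted line between the 2 tables. Fgl1 steps from Young (49.5 to 70.0) to Old and Young PH and then to Old PH, among wild-type libraries F11 and Klkb1 are lowest in Young PH, and the Smo (+) library at 0 h is the highest of its experiment for F2, F10, Klkb1 and Proc.

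The other gene of this class that was tested, F13b, encodes the carrier subunit of factor XIII, the enzyme that cross-links fibrin. It was at 143, 171 and 158 CPM in Young, 278, 284 and 237 in Old, 78.4, 102 and 98.6 in Young PH and 217, 173 and 211 in Old PH. It was higher in old mice at both times (0.76 ± 0.14 and 1.11 ± 0.14, adjusted p = 4.2e-04 and 1.91e-05) and fell after PH (-0.76 ± 0.14 in young and -0.41 ± 0.14 in old mice, adjusted p = 0.00110 and 0.0375), the latter call lost in 4 of 6 fits without 1 library. F13a1, the catalytic subunit, which macrophages and platelets make, had at most 9 counts in any wild-type library.

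Of the 7 anticoagulants 4 were higher in Old, and after PH 2 were higher and 4 lower in young mice and 1 was higher and 4 lower in old mice. Serpinc1, the gene of antithrombin, the chief inhibitor of thrombin, was at 1698, 1861 and 1878 CPM in Young, 3664, 3214 and 3048 in Old, 1005, 954 and 904 in Young PH and 1724, 1566 and 1642 in Old PH. Its differences were 0.87 ± 0.15 (SE, adjusted p = 2.01e-04) with age, -0.93 ± 0.15 (SE, adjusted p = 3.33e-04) after PH in young mice and -1.01 ± 0.15 (SE, adjusted p = 1.98e-04) in old mice. Of its 50-base words 33.6% are shared with Zbtb37 on the opposite strand, and the strand setting of the counting was not stated. Proc encodes protein C, which inactivates factors V and VIII. It measured 295, 336 and 292 CPM in Young, 944, 755 and 687 in Old, 115, 129 and 132 in Young PH and 405, 357 and 346 in Old PH. No groups overlapped, with the Old PH libraries just above those of Young. Over all tested genes 42.6% to 69.2% did not overlap in the 4 comparisons. The log2 differences of Proc were 1.37 ± 0.15 (SE, adjusted p = 3.41e-06) with age at 0 h, 1.56 ± 0.15 (SE, adjusted p = 1.29e-06) at 48 h, -1.29 ± 0.15 (SE, adjusted p = 1.85e-05) after PH in young mice and -1.11 ± 0.15 (SE, adjusted p = 8.01e-05) in old mice.

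Pros1, the gene of protein S, the cofactor of protein C, went the other way after PH. It was at 37.9, 50.8 and 38.6 CPM in Young and 89.8, 97.3 and 85.6 in Old (1.10 ± 0.13, adjusted p = 1.03e-05). After PH it was at 69.9, 59.7 and 57.3 CPM in Young PH and 132, 123 and 113 in Old PH, rises of 0.55 ± 0.13 and 0.44 ± 0.13 (adjusted p = 0.00556 and 0.0200). The rise in old mice lost its call in 3 of 6 fits without 1 library. Serpind1, the gene of heparin cofactor II, another inhibitor of thrombin, was at 548, 583 and 576 CPM in Young and 925, 865 and 712 in Old (0.55 ± 0.15, adjusted p = 0.00525), and fell after PH, with log2 changes of -0.82 and -0.79 (adjusted p = 8.07e-04 and 0.00116). Thbd, the endothelial receptor thrombomodulin that lets thrombin activate protein C, was at 1.06, 2.60 and 2.43 CPM in Young, 1.38, 2.71 and 1.68 in Old, 9.89, 5.86 and 8.19 in Young PH and 2.14, 2.09 and 6.12 in Old PH. It rose after PH in young mice (1.97 ± 0.43, adjusted p = 0.00309), the old response was 0.85 ± 0.46 (adjusted p = 0.170), and the difference between the responses was not called (-1.12 ± 0.63, adjusted p = 0.333). At 48 h Thbd was lower in Old PH than in Young PH (-1.21 ± 0.43, adjusted p = 0.0235), a call lost in 4 of 6 fits without 1 library. The summed endothelial markers went down after PH, to 186 to 208 CPM in Young PH. Of the 13 markers 6 were called lower and 0 higher, beside 16.4% and 17.8% of all genes. Tfpi, the endothelial inhibitor of tissue factor, was at 1.14 to 5.02 CPM in wild-type libraries and was not called in any of the 4 comparisons.

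Of the 4 fibrinolysis genes tested 3 were higher in Old, 2 were lower after PH in young mice and 3 were lower after PH in old mice. Plg, the gene of plasminogen, the precursor of plasmin, was at 3310.0, 3594 and 3485 CPM in Young and 4182, 3854 and 3367 in Old (0.13 ± 0.18, adjusted p = 0.532). After PH it was at 2509, 2342 and 2299 in Young PH and 2814, 2502 and 1931 in Old PH, lower by the test, with log2 changes of -0.54 and -0.65 (adjusted p = 0.0327 and 0.0117), of which the young one was lost whichever library was left out. Serpinf2 encodes antiplasmin, which inhibits plasmin. It was at 1157, 1295 and 1228 CPM in Young and 2095, 1657 and 1502 in Old (0.51 ± 0.17, adjusted p = 0.0153) and was lower after PH in young (-0.51, adjusted p = 0.0292, lost in 5 of 6 fits without 1 library) and old mice (-0.84, adjusted p = 0.00162). Cpb2, the gene of a carboxypeptidase that protects fibrin from plasmin, was at 283, 299.6 and 320.4 CPM in Young and 425, 489.6 and 382 in Old, higher with age (0.52 ± 0.16, adjusted p = 0.0119) and not called after PH. The plasminogen activator Plau was near the limit of detection, with 10, 17 and 13 counts in Young and 13, 46 and 53 in Old, 8, 8 and 9 in Young PH and 10, 7 and 13 in Old PH. It was called higher in Old (2.47 ± 0.50, adjusted p = 7.03e-04) and lower in Old PH than in Old (-2.27 ± 0.51, adjusted p = 0.00367). Macrophages make Plau. All 9 Kupffer cell and macrophage markers were higher in Old than in Young (summed level 103 to 564 against 59.0 to 91.0 CPM), beside 29.3% of all genes. In Old PH 8 of these 9 markers were lower than in Old (sum 32.4 to 104 CPM), beside 15.1% of all genes. Their part in the values of Plau was not tested. The other plasminogen activator, Plat, had at most 7 counts in a wild-type library.

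Of the 5 plasma binding proteins and broad inhibitors 2, Apoh and Vtn, were higher in Old. Apoh encodes beta-2-glycoprotein I, which binds phospholipid surfaces. Its levels were 1188, 1449 and 1287 CPM in Young, 4161, 2926 and 2744 in Old, 504, 499 and 474 in Young PH and 1214, 991 and 1119 in Old PH. The level in Old was 2.51-fold that in Young (1.32 ± 0.18, adjusted p = 2.98e-05), and after PH it was 2.66-fold lower in young mice (-1.41 ± 0.18, adjusted p = 5.54e-05) and 2.96-fold in old mice (-1.56 ± 0.18, adjusted p = 2.82e-05). Vtn was at 2227, 2440.1 and 2301 CPM in Young, 6415, 4524 and 4343 in Old, 2057, 2012 and 1988 in Young PH and 3598, 3249 and 2624 in Old PH. It was higher in Old (1.13 ± 0.20, adjusted p = 1.97e-04) and fell after PH in old mice (-0.69 ± 0.19, adjusted p = 0.0130, lost without Old PH 3), while young mice gave -0.20 ± 0.19 (adjusted p = 0.460). Hrg, the gene of histidine-rich glycoprotein, which binds plasminogen and heparin, differed by 0.03 ± 0.21 with age at 0 h (adjusted p = 0.894). At 48 h it was at 1392, 1393 and 1383 CPM in Young PH and 1049, 818 and 601 in Old PH (-0.76 ± 0.21, adjusted p = 0.00587). These groups did not overlap, as for 69.2% of all tested genes.

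The broad protease inhibitors Pzp and A2m, of 1 protein family, had very different counts. Pzp, the constitutive alpha-macroglobulin of mouse plasma, was at 7225, 8998 and 6936 CPM in Young and 6676, 6258 and 5785 in Old and was called only between Old PH and Young PH (-0.61 ± 0.25, adjusted p = 0.0472), a call lost in 5 of 6 fits without 1 library. A2m had 8, 9 and 0 counts in Young, 1, 1 and 3 in Old, 245, 8 and 13 in Young PH and 0, 13 and 5 in Old PH. It was called higher in Young PH than in Young and lower in Old PH than in Young PH through the 245 counts of the library Young PH 1, without which it did not pass the filter. The same library was the highest of its group for the fibrinogen chains. Vwf, the gene of von Willebrand factor, the endothelial protein that tethers platelets, was at 0.613 to 1.79 CPM in the wild-type libraries and was not called in any comparison.

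Across both ages 14 members were lower after PH in young and in old mice, where 8.35% of all tested genes were lower in both. They make up 93.3% of the 15 called lower in young mice and 73.7% of the 19 called lower in old mice (50.9% and 55.3% over all genes), and include F2, F7, F10, F12, Klkb1, Serpinc1, Proc, Plg and Apoh. Fgl1 and Pros1 were higher in both, beside 12.6% of all genes.

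In the Smo-floxed mice the comparison of Smo (-) with Smo (+) rests on 1 Smo (+) library per time, which was assumed to vary like the Smo (-) libraries, with 2 residual degrees of freedom. At 0 h 11 of the 35 members were lower in Smo (-) and 0 were higher, beside 13.5% of 13654 genes called lower and 13.9% called higher. The median log2 difference was -0.62 for the members and 0.00 for all genes. As shares of all gene counts, before scaling, the members together took 4.04% in Smo (+) and 3.97% and 4.15% in Smo (-). The members called lower were F7, F8, F10, Kng1, Kng2, Fgl1, Proc, Pros1, Tfpi, Thbd and Plau. F7 was at 355 CPM in Smo (+) and 141 and 196 in Smo (-) (-1.07 ± 0.25, adjusted p = 0.0149), F10 at 1392 against 618 and 764 (-1.01 ± 0.25, adjusted p = 0.0183), and Proc at 1746 against 698 and 1013 (-1.03 ± 0.29, adjusted p = 0.0295). Kng2 was at 523 CPM in Smo (+) and 264 and 259 in Smo (-) (-1.0 ± 0.21, adjusted p = 0.0103), and Fgl1 at 202 against 104 and 107 (-0.94 ± 0.24, adjusted p = 0.0198). By the fit these 5 genes were 1.92- to 2.10-fold lower in Smo (-). Without the library Smo (-) 1, which leaves 1 library in each group, the calls of F10, Kng1, Plau, Proc and Pros1 were lost. The log2 difference was then -0.86 for F10 and -0.79 for Proc.

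The 4 called members with the largest differences at 0 h were F8, Thbd and Tfpi, which belong to endothelial cells, and Plau, which macrophages make. F8 was at 22.3 CPM in Smo (+) and 5.38 and 8.83 in Smo (-) (-1.65 ± 0.30, adjusted p = 0.00729), Thbd at 5.37 against 1.24 and 2.01 (-1.73 ± 0.34, adjusted p = 0.00899), and Tfpi at 11.2 against 1.41 and 4.2 (-2.0 ± 0.50, adjusted p = 0.0200). Plau was at 4.98 against 0.283 and 1.77 (-2.29 ± 0.74, adjusted p = 0.0467), a call lost with DESeq2 and without Smo (-) 1. Vwf was not called, at 6.01 against 1.02 and 2.92 CPM (-1.61 ± 0.55, adjusted p = 0.0537). All 13 endothelial markers and all 9 Kupffer cell and macrophage markers were called lower in Smo (-) too, with summed levels of 1506 CPM in Smo (+) against 265 to 527 in Smo (-), and 489.5 against 94.7 to 135. Of 9 hepatocyte markers 3 were called higher in Smo (-), 1 lower and 5 neither, beside 13.9% and 13.5% of all genes called higher and lower. Ass1 and Cps1 were among the higher ones (2.08 and 2.03), and Apoa1 was the lower one (-1.42). These shifts come from the same single library with the high mitochondrial share, and their part in the values of the members was not tested. Serpinc1 was at 2423 CPM against 2178 and 2663 and was not called (-0.00 ± 0.29, adjusted p = 1.000), nor were F9 (0.13 ± 0.19, adjusted p = 0.640) and Fga (0.07 ± 0.34, adjusted p = 0.892).

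At 48 h after PH no member was called between Smo (-) and Smo (+), by edgeR, DESeq2 or limma-voom, and 1 member had an unadjusted p under 0.05. Few genes of any kind were called, 0.0366% higher and 0.0879% lower, although 356 genes were higher and 440 lower at an unadjusted p under 0.05. The median difference was -0.03 for the members and 0.00 for all genes. For F2 the levels were 2134 CPM in Smo (+) PH and 1956 and 1678 in Smo (-) PH, with a 95% interval of the log2 difference from -0.89 to 0.42. For Fgl1 they were 1625 against 1759.5 and 1548, with an interval from -0.52 to 0.57, and for Proc 451 against 477 and 357, with an interval from -0.78 to 0.56. These intervals do not show that the groups were alike.

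**Figure D5:**
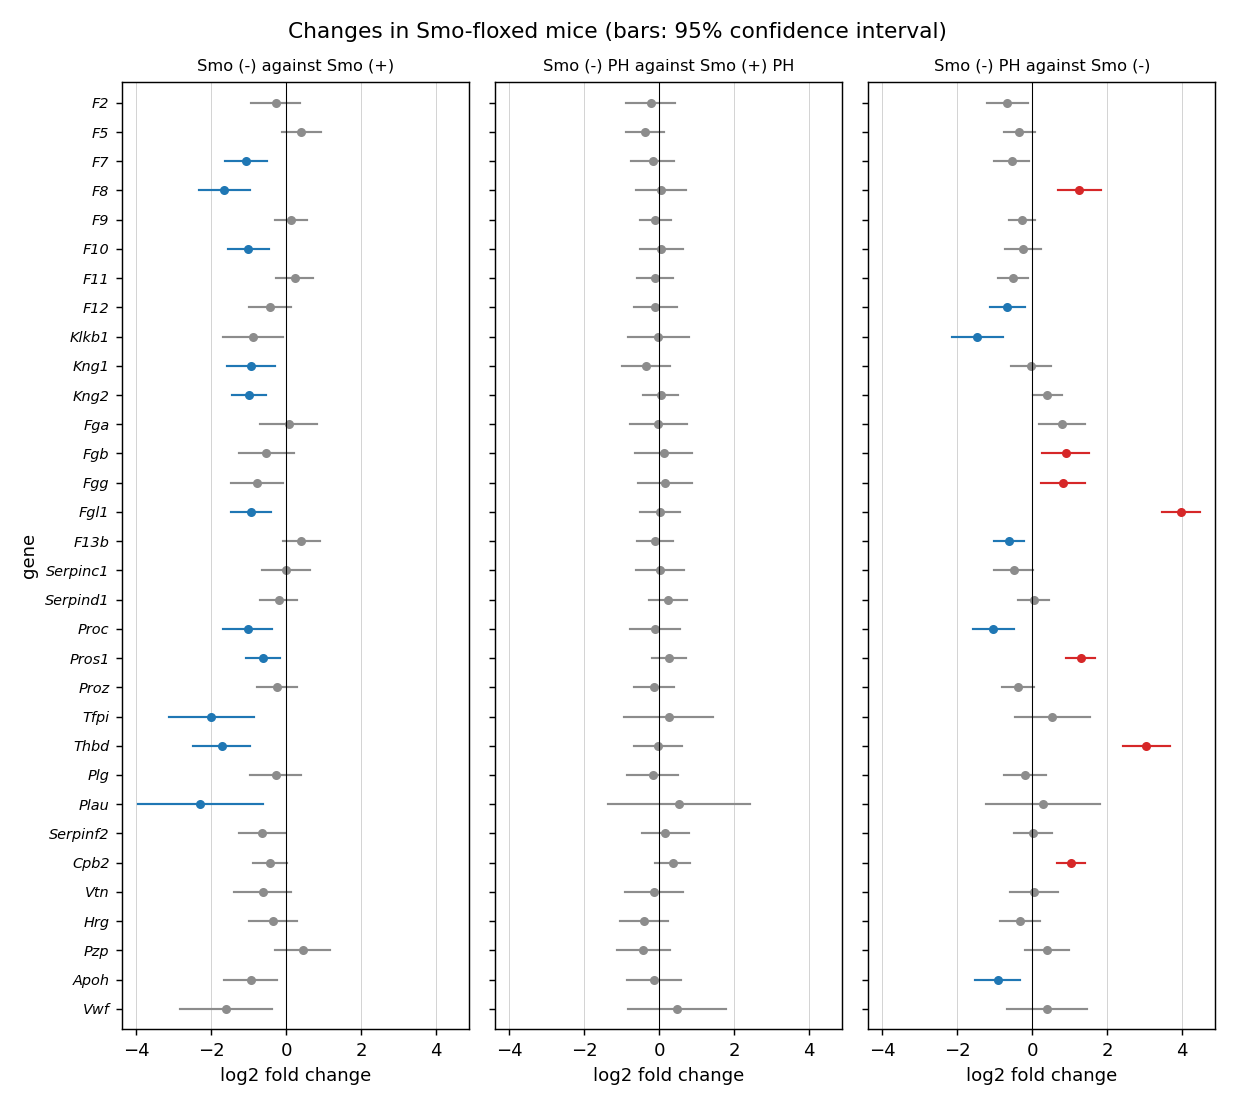
Log2 fold change of each member in the Smo-floxed mice, with bars for the 95% confidence interval and colour for genes called higher (red) or lower (blue); grey genes were not called. A2m, F13a1 and Plat are not drawn. The left panel has 11 genes in blue and none in red, the middle panel is grey throughout, and Fgl1 and Thbd lie furthest to the right in the panel of Smo (-) PH against Smo (-).

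From 0 h to 48 h after PH in Smo (-) mice 8 members rose and 5 fell, against 16.0% and 14.2% of all genes, with medians of 0.04 for the members and 0.01 for all genes. Fgl1 rose 15.7-fold, from 104 and 107 to 1759.5 and 1548 CPM (3.98 ± 0.22, adjusted p = 5.88e-06). Pros1 rose from 44.6 and 50.1 to 103 and 128 CPM (1.29 ± 0.17, adjusted p = 6.04e-04), and Thbd from 1.24 and 2.01 to 13.8 and 13.2 (3.05 ± 0.28, adjusted p = 7.71e-05). Fibrinogen chains rose as well, Fgb from 3617 and 4121 to 7842 and 6562 CPM (0.90 ± 0.28, adjusted p = 0.0364) and Fgg from 2619.6 and 2819 to 5324 and 4219 (0.81 ± 0.26, adjusted p = 0.0432). Both chain calls were lost whichever of the 4 libraries was left out, and Fga gave 0.80 ± 0.28 (adjusted p = 0.0544). Cpb2 rose from 208 and 218 to 438 and 433 CPM (1.03 ± 0.17, adjusted p = 0.00182). F8 rose from 5.38 and 8.83 to 19.0 and 15 CPM (1.26 ± 0.26, adjusted p = 0.00583), while 4 of 13 endothelial and all 9 macrophage markers rose and their summed levels reached 548 to 630.2 and 312 to 361 CPM, a shift whose part in F8 and Thbd was not tested. A2m had 0 counts in both Smo (-) libraries and 13 and 21 after PH, at least 4.43-fold higher against a floor of 3 counts per library.

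Klkb1, Proc, Apoh, F12 and F13b fell in Smo (-) mice after PH. Klkb1 went from 155 and 206 to 88.1 and 42.7 CPM (-1.47 ± 0.30, adjusted p = 0.00629) and Proc from 698 and 1013 to 477 and 357 (-1.04 ± 0.25, adjusted p = 0.0123). Apoh went from 2144 and 2738 to 1509.8 and 1064 CPM (-0.92 ± 0.27, adjusted p = 0.0284). All 5 were also among those lower after PH in both wild-type ages. The calls of F12, F13b, Proc and Apoh in Smo (-) mice were lost in some fits without 1 library, each of which left 1 library in a group. In those fits the log2 changes were -0.77 to -0.51 for F12 and -0.57 to -0.43 for F13b. They were -0.84 to -0.75 for Proc and -0.75 to -0.69 for Apoh. F2 (-0.66 ± 0.24, adjusted p = 0.0652) and Serpinc1 (-0.50 ± 0.23, adjusted p = 0.141) were not called. Without the library Smo (-) PH 2, 6 members were called in place of 13. The PH response differed between Smo (-) and Smo (+) for F8 (1.70 ± 0.43, adjusted p = 0.0418) and Thbd (1.70 ± 0.45, adjusted p = 0.0448), beside 4.60% of all genes called higher and 6.14% lower. This rests on the single Smo (+) libraries, in which F8 went from 22.3 to 16.4 CPM and Thbd from 5.37 to 13.7, and 8 of 13 endothelial markers were called in the same direction. The call of Thbd was lost without Smo (-) PH 1 (adjusted p = 0.0603), with DESeq2 (0.0702) and with limma-voom (0.0558). Proz, Serpind1, Plg, Serpinf2, Vtn, Hrg and Pzp were called in none of the Smo comparisons, nor were F13a1 and Plat, which had at most 12 counts in a library.

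Other genes of the pathway gave the setting, and their counts stand beside these shares of all genes. In Old 29.3% were called higher and 33.7% lower. After PH these shares were 17.8% and 16.4% in young mice and 22.5% and 15.1% in old mice. For Old PH against Young PH they were 29.7% and 32.4%. For Smo (-) against Smo (+) at 0 h they were 13.9% and 13.5%, and after PH in Smo (-) mice 16.0% and 14.2%. Of 6 tested genes of the vitamin K cycle and of factor export, Mcfd2, a cargo receptor subunit for factors V and VIII, was higher in Old (1.81 ± 0.13, adjusted p = 1.24e-07), and Ggcx, the carboxylase that vitamin K serves (-1.06 ± 0.11, adjusted p = 1.64e-06), and the protease gene Furin (-1.33 ± 0.13, adjusted p = 1.64e-06) were lower. After PH Ggcx was lower in young mice (-0.70, adjusted p = 1.75e-04), 1 of 6 called, and Vkorc1, the vitamin K reductase, Furin and Ggcx were lower in old mice (-1.07, -0.50 and -0.41). None of the 6 was called between Smo (-) and Smo (+) at 0 h. Of 19 further regulators of clotting and fibrinolysis 8 were higher and 2 lower in Old, with the plasmin receptor genes Anxa2 (2.83 ± 0.42, adjusted p = 4.96e-05) and S100a10 (1.5 ± 0.19, adjusted p = 1.72e-05) and the protein Z-dependent inhibitor gene Serpina10 (1.34 ± 0.20, adjusted p = 5.91e-05) among the former and the complement protease gene Masp1 (-1.11 ± 0.12, adjusted p = 3.58e-06) among the latter. In young mice 5 were higher and 4 lower after PH, and in old mice 2 and 6, with Hgfac, the gene of the activator of hepatocyte growth factor, lower in both (-1.47 and -1.48) and Anxa2 higher in both (2.18 and 2.14). At 48 h 7 were higher and 3 lower in Old PH than in Young PH, and in Smo (-) at 0 h 1 of 18 was higher and 5 were lower.

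The counts below stand beside the same shares of all genes. Of 10 tested transcription factors known to act on coagulation genes in hepatocytes 5 were lower in Old and 0 higher, beside 33.7% and 29.3%. Onecut1 was at -4.98 ± 0.53 (SE, adjusted p = 2.73e-06) and Foxa1 at -1.69 ± 0.22 (SE, adjusted p = 1.76e-05). After PH Cebpa was lower in young (-1.02 ± 0.21, adjusted p = 0.00199) and old mice (-1.20 ± 0.21, adjusted p = 7.20e-04), beside 1 other lower and 1 higher in young mice and 1 higher in old mice. In Smo (-) at 0 h 3 were higher and 0 lower, Hnf4a by 1.07 (adjusted p = 0.0129) and Cebpa by 1.23 (adjusted p = 0.0214), and after PH in Smo (-) mice 6 were lower and 0 higher. Acute phase genes and the interleukin 6 pathway had 14 of 20 higher and 1 lower in Old, with Saa1 at 3.66 ± 0.39 (SE, adjusted p = 2.68e-06) and Hp at 2.77 ± 0.32 (SE, adjusted p = 5.74e-06). After PH 15 were higher and 1 lower in young mice, where Lcn2 was at 9.37 ± 0.66 (SE, adjusted p = 1.85e-07) and Saa1 at 7.03 ± 0.45 (SE, adjusted p = 8.56e-08), and 7 were higher and 2 lower in old mice, where Saa1 was at 4.01 ± 0.39 (SE, adjusted p = 4.81e-06). Their response to PH differed between the ages for 5 of 20, each with the lower response in old mice, a call made for 0.983% of all genes. In Smo (-) at 0 h 8 were lower and 0 higher, and after PH in Smo (-) mice 16 were higher and 0 lower.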

How the data were processed

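Per the labels and the methods, the authors trimmed read pairs with Trim Galore, aligned them to mm10 with STAR (2.5.0c in the submitters' processing notes), removed duplicates with Picard and counted pairs per gene with HTSeq. The deposited values are raw counts per gene in 2 tables, 12 libraries of young and old mice and 6 of Smo-floxed mice, with 16835686 to 36646939 pairs in genes each. The annotation release and strand setting are not given in the sources used here, so for 7 members reads of an antisense overlapping gene cannot be told apart. Genes were matched by Ensembl identifier, since the name column of the Smo table is out of register. The pairs outside genes, 2.03% to 33.9% of all, and the ambiguous pairs entered no total. Removal of duplicates can lower the counts of the most abundant transcripts.

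Counts were scaled by trimmed means of M values and tested with edgeR 4.0.16 (R 4.3.3; quasi-likelihood F test, filterByExpr at its minimum count of 10, total 15) in 1 fit per table, with Benjamini-Hochberg adjustment over 14554 and 13654 genes and a threshold of 0.05. Residual degrees of freedom were 8 and 2. Samples were grouped by their titles. The p-values measure the spread between these mice, which in the Smo table came only from the pairs of Smo (-) libraries. CPM are counts-per-million of the scaled library size, and kilobases are exon length in GENCODE M21. DESeq2 1.42.0, limma-voom (limma 3.58.1), size factors, no filter, a gene-length correction, fits of 2 groups, protein-coding nuclear genes only (chosen after seeing the data) and leaving out each library were the alternatives. Every member is named, and up to 4 genes of each other list, those with the smallest adjusted p. The fit was checked on counts simulated with its own estimates of spread, which cannot test the assumption about the single Smo (+) libraries. The members and lists were chosen with earlier results of these data known. Libraries of a group differed by more than sampling noise, and each was counted as 1 sample. Promoter windows came from RefSeq tables of GRCm38.p6, and 9 members had none.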

Additional observations from a re-analysis of the deposited data

Results flagged for a closer look

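Responses to PH were called different between groups for 4 members. F11 fell after PH in young mice and was not called in old mice, with a difference of 0.90 on the log2 scale (Old minus Young, adjusted p = 0.0225, edgeR), and the 3 Young libraries lay above all Young PH libraries while Old and Old PH overlapped. Fgl1 rose at both ages, with every PH library above every 0 h library, and rose less in old mice by the fitted group means. That difference was -1.67 (adjusted p = 0.0185, edgeR). The 0 h and 48 h libraries came from different mice, so no mouse had a response of its own. Between PH and 0 h 55.0% of all tested genes did not overlap in young mice and 42.6% in old mice. F8 and Thbd differed between Smo (-) and Smo (+), by 1.70 each (adjusted p = 0.0418 and 0.0448), and there the Smo (+) response rests on 1 library per time.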

How the results depend on the processing

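With 1 library left out in turn the number of members called was 22 to 25 for Old against Young (23 with all libraries), 14 to 19 for Young PH against Young (20), 16 to 20 for Old PH against Old (21) and 17 to 22 for Old PH against Young PH (24), 0 to 2 for the difference in PH response between ages (2), 6 to 12 for Smo (-) against Smo (+) (11), 0 to 0 at 48 h (0), 6 to 13 for Smo (-) PH against Smo (-) (13) and 2 to 9 for the difference between the Smo groups (2). The calls for F11 and Fgl1 as differing in response between ages were lost together without Young 1 or Young PH 2, and that of F11 without Young PH 3. Other tools and settings left the counts within 1.5 times of these values, apart from the following. Correction for gene length gave 14 members for Old PH against Young PH and a log2 difference of -0.01 for F11 (-0.00907 unrounded), and DESeq2 and the absence of a filter gave 6 and 8 members for the difference between the Smo groups. Scaling by total gene counts alone gave summed member levels of 50764.5 CPM in place of 60463.9 in Old, 40369.1 in place of 53872.4 in Smo (+) and 55434.1 in place of 50488.0 in Smo (+) PH. Over all genes, 474 were called for the difference between ages (1131 with DESeq2, 60 to 825 without 1 library, and 223 higher and 158 lower with gene-length correction against 331 and 143), 17 at 48 h in the Smo mice (49 with DESeq2, 179 without a filter, 53 to 104 without 1 library), 4124 after PH in Smo (-) mice (2482 without Smo (-) PH 2) and 1466 for the difference between the Smo groups (2991 without a filter, 3749 without Smo (-) 2). The cause was not tested.

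The replicate numbers were not taken to pair the mice. Correlations of deviations ran from -0.112 to 0.226 between same-numbered libraries and from -0.217 to 0.133 between the others. Deviations from means of so few libraries are tied to each other, so these values cannot show whether the numbers mark pairs. A replicate block gave 23 members for Old against Young, 21 for Young PH against Young, 19 for Old PH against Old, 23 for Old PH against Young PH, 2 for the difference between ages and 14 for Smo (-) PH against Smo (-). No paired analysis was possible for Smo (-) against Smo (+) because these groups share fewer than 2 numbers. The single Smo (+) libraries, the overlap of age with source and with the share of reads outside genes, and counts of at most 12 for F13a1 and Plat limit what can be read from these data, and protein levels and clotting were not measured.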
